A study of Caenorhabditis elegans with 9 samples.

Results

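The genes described here are those of Caenorhabditis elegans whose symbol begins with eif-, the translation initiation factors. They were chosen by symbol among the spots of a microarray: 6 spots, 1 for each of 6 genes, out of 7774 spots with a gene name and 21888 spots in all. Of the 25 eif- genes in the RefSeq table of the WBcel235 assembly, the other 19 had no spot under an eif- name, among them all 11 whose symbol begins with eif-3. The measured genes were eif-2Balpha, eif-2Bbeta, eif-2Bdelta and eif-2Bepsilon, which encode 4 of the 5 subunits of eIF2B, and eif-2A and eif-2D.

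eIF2 is the factor that brings the initiator methionyl-tRNA to the small ribosomal subunit, and it can do so only while bound to GTP. eIF2B is the exchange factor that reloads eIF2 with GTP after each round of initiation. The epsilon subunit carries the exchange activity, and alpha, beta and delta form the regulatory part that senses phosphorylated eIF2, which holds eIF2B in an inactive state. In mammalian cells stress kinases phosphorylate eIF2 in low oxygen, and bulk protein synthesis then falls while a few mRNAs are translated more. eIF2A and eIF2D are not parts of eIF2. In mammals both can bring a tRNA to the ribosome without it, eIF2A on selected mRNAs, and eIF2D also takes part in the release of ribosomal subunits and tRNA after termination.

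Total RNA was compared on 9 spotted arrays with 2 colours: 3 of a vhl-1 mutant, 3 of a hif-1 mutant and 3 of wild type. Each array set an H sample, labelled with Cy3, against the N sample of like genotype and number, labelled with Cy5. From the title of the series H is read as hypoxia and N as normoxia. hif-1 encodes HIF-1, the transcription factor that is induced by low oxygen, and vhl-1 the protein that marks it for degradation. The labels give the gene of each mutant but no allele, strain, stage, oxygen level or duration, and no tissue, so there was no cell type to check against markers. In RNA pooled from many cells, fewer cells of a type and less RNA per cell cannot be told apart.

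All values below are log2 ratios of H over N, so that 1 unit is a doubling, with the median of each array set to 0. A positive value means more RNA in H. Neither the direction nor the base of the logarithm is stated in the sources used here. The direction is likely, not settled: the sample titles put N before H, and channel 2 is usually divided by channel 1. With this reading F22B5.4, a gene known to be induced through HIF-1, stood at 2.26 ± 1.21 in wild type (SD, n = 3). With the opposite reading every sign below would turn and no p would change. The dyes were never swapped. In the response of any 1 spot, dye and H therefore cannot be told apart, whereas in a difference between genotypes a constant dye effect cancels.

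The mean responses of the 6 genes over the 9 arrays were not all in one direction. In the mean over the 3 genotypes eif-2Bepsilon and eif-2A were higher in H and eif-2D was lower, each by about 0.5 log2 units, while eif-2Balpha, eif-2Bbeta and eif-2Bdelta did not pass the test. In single genotypes 0 of the 6 genes passed in limma, with 1 in the vhl-1 mutant, 1 in the hif-1 mutant and 2 in wild type at an unadjusted p under 0.05, as for 5638, 4226 and 2729 of all 20858 features. In the differences between genotypes 0 of the 6 passed. A gene passed at an adjusted p under 0.05 in limma, a linear model fitted to all 20858 features of the table at once, with Benjamini-Hochberg adjustment over all of them. Each of the 6 genes had a value on all 9 arrays and passed the filter on missing values.

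**Figure D1:**
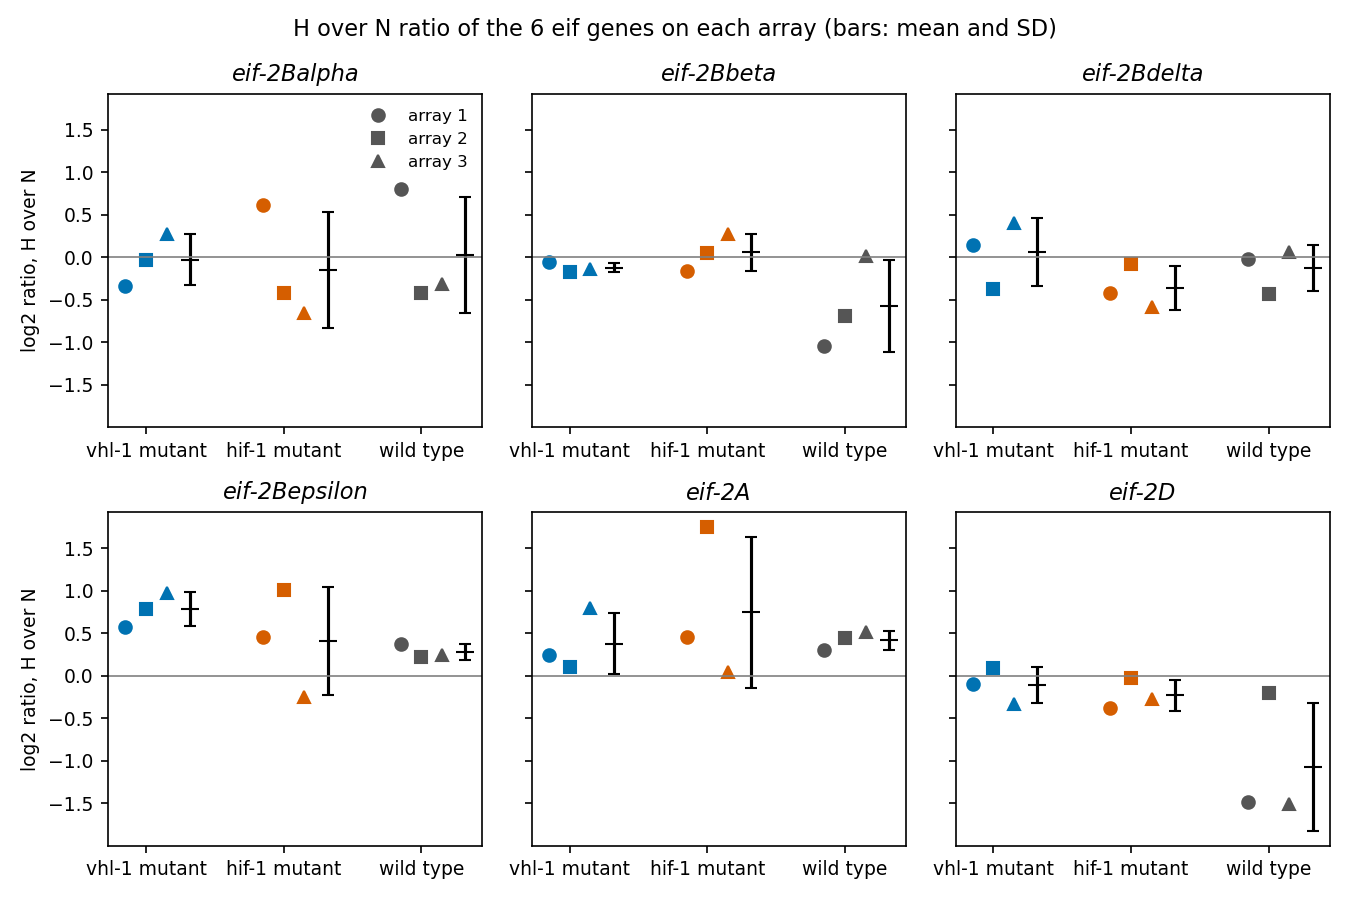
Log2 ratio of H over N for each eif gene (vertical axis) on the 3 arrays of the vhl-1 mutant, the hif-1 mutant and wild type (horizontal axis), with symbols for the array number and a bar for the mean and SD of each genotype. eif-2A lies above 0 on all 9 arrays, eif-2Bepsilon on 8 of 9, and eif-2D is lowest on wild type arrays 1 and 3.

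eif-2Bepsilon (D2085.3, chromosome II) encodes the catalytic subunit of eIF2B. Its log2 ratios were 0.58, 0.79 and 0.98 in the vhl-1 mutant, 0.46, 1.01 and -0.25 in the hif-1 mutant, and 0.38, 0.22 and 0.24 in wild type. It was thus above 0 on 8 of 9 arrays, with hif-1 mutant array 3 as the exception, and the vhl-1 mutant arrays did not overlap wild type, as in 17.9% of the 19473 features with all values. Its mean over genotypes was 0.49 (SE 0.142, 95% interval 0.18 to 0.80, n = 9), a 1.40-fold higher ratio, with an adjusted p of 0.0283 in limma. With each place on the array centred, as described below, it was 0.18 and did not pass (adjusted p = 0.303), and it passed in 3 of 9 fits that left out 1 array.

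eif-2A (E04D5.1, chromosome II) encodes the factor that can bring initiator tRNA without eIF2. Its values were 0.24, 0.11 and 0.80 in the vhl-1 mutant, 0.46, 1.75 and 0.04 in the hif-1 mutant, and 0.30, 0.45 and 0.52 in wild type. All 9 arrays were above 0, and hif-1 mutant array 2 stood out as the highest value of any eif gene on any array. The mean over genotypes was 0.52 (SE 0.169, 95% interval 0.15 to 0.88, n = 9), or 1.43-fold, with an adjusted p of 0.0452 in limma. Without hif-1 mutant array 2 it was 0.35, with an adjusted p of 0.0871. That array also had the widest spread over all features, with an SD of 0.835 against 0.576 to 0.757 on the other arrays. Its part in the result was not tested beyond leaving it out.

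eif-2D (C25H3.4, chromosome II) encodes the other factor that works outside eIF2. Its values were -0.09, 0.09 and -0.33 in the vhl-1 mutant, -0.38, -0.03 and -0.27 in the hif-1 mutant, and -1.49, -0.20 and -1.51 in wild type. It was below 0 on 8 of 9 arrays, and wild type arrays 1 and 3 lay far below the rest, while wild type array 2 fell among the mutant arrays. The mean over genotypes was -0.47 (SE 0.153, 95% interval -0.80 to -0.14, n = 9), with an adjusted p of 0.0455 in limma. It passed in 1 of 9 fits that left out 1 array, that without wild type array 2. With the genotypes weighted alike, most of this mean came from wild type, at -1.07, against -0.11 in the vhl-1 mutant and -0.23 in the hif-1 mutant.

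The regulatory subunits of eIF2B showed values on either side of 0. eif-2Balpha (ZK1098.4, chromosome III) had -0.34, -0.03 and 0.27 in the vhl-1 mutant, 0.62, -0.42 and -0.66 in the hif-1 mutant, and 0.81, -0.42 and -0.31 in wild type. It was above 0 on 3 of 9 arrays, and its arrays within the hif-1 mutant and within wild type spread over more than 1 unit. Its mean was -0.05 (95% interval -0.43 to 0.32; adjusted p = 0.851 in limma).

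eif-2Bbeta (Y47H9C.7, chromosome I) had -0.06, -0.17 and -0.14 in the vhl-1 mutant, -0.16, 0.05 and 0.28 in the hif-1 mutant, and -1.04, -0.69 and 0.02 in wild type. The mutant arrays lay close to 0, and wild type arrays 1 and 2 were the lowest of the 9. Its mean was -0.21 (95% interval -0.51 to 0.08; adjusted p = 0.278 in limma). eif-2Bdelta (F11A3.2, chromosome V) had 0.15, -0.37 and 0.41 in the vhl-1 mutant, -0.42, -0.08 and -0.59 in the hif-1 mutant, and -0.02, -0.43 and 0.06 in wild type. The hif-1 mutant was the only genotype in which this subunit lay below 0 on all 3 arrays. The other spots of its block on the array, described below, had a median of -0.29 in that mutant. The mean of eif-2Bdelta was -0.14 (95% interval -0.43 to 0.14; adjusted p = 0.461 in limma). For these 3 subunits the intervals reach no further than -0.51 and 0.32, so mean changes beyond those values lie outside them.

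The count of 3 genes past the test in the mean, 2 higher and 1 lower of 6, stands against a background in which 21.5% of all 20858 features passed it (4493 features) and 17.0% of the 7179 named genes. The median of the 6 genes was -0.10, beside 0.01 for all features. Among all features eif-2A lay at the 91.3rd percentile of the mean response, eif-2Bepsilon at the 90.0th and eif-2D at the 10.7th, and the other 3 genes between the 27.5th and the 43.4th. A mean response of this size was therefore common on these arrays. Values of one sign on all 9 arrays, as for eif-2A, were found in 10.1% of the 19473 features with all values, and on at least 8 of 9 arrays in 26.6%.

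**Figure D2:**
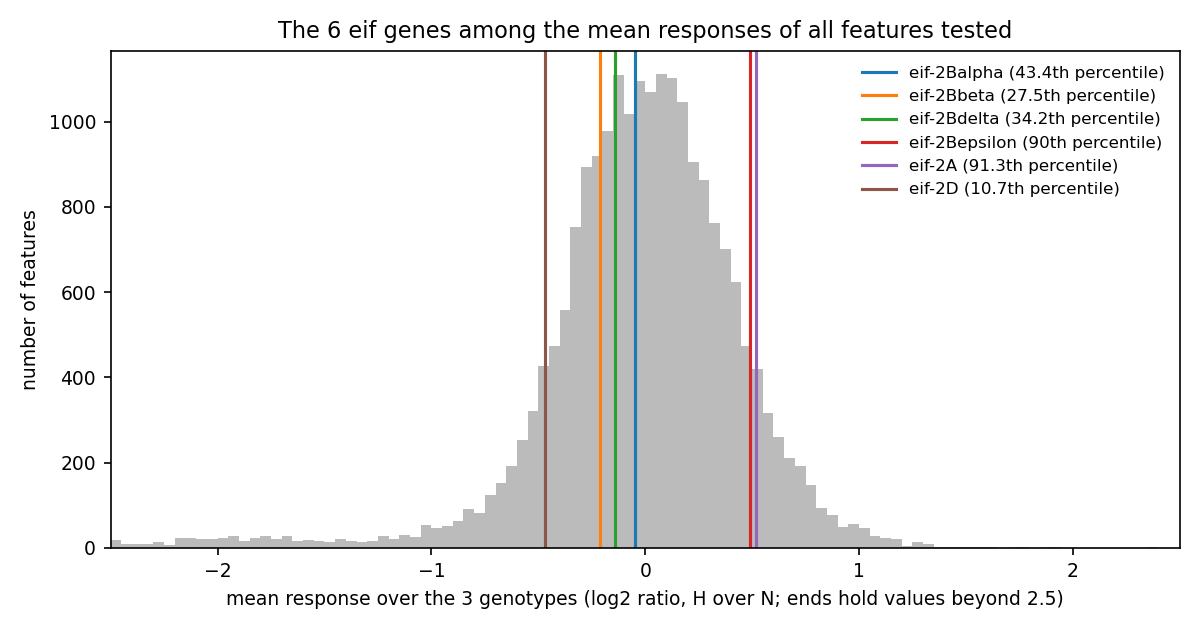
Histogram of the mean response over the 3 genotypes (log2 ratio of H over N, horizontal axis) for all 20858 features, with the number of features on the vertical axis and a coloured line for each eif gene. eif-2Bepsilon at 0.49 and eif-2A at 0.52 lie near the 90th percentile and eif-2D at -0.47 near the 10th, all well inside the range of the table.

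The 3 calls in the mean were close to the threshold, and each was lost in most fits that left out 1 array. Some were lost with the mean almost unchanged, as for eif-2D at -0.47 without vhl-1 mutant array 1. Leaving out each array in turn, eif-2A passed in 2 of 9 fits, those without hif-1 mutant array 1 or 3, with means from 0.35 to 0.64 and adjusted p from 0.0221 to 0.128. eif-2Bepsilon passed in 3 of 9, those without vhl-1 mutant array 1 or hif-1 mutant array 1 or 3, with means from 0.39 to 0.60 and adjusted p from 0.0117 to 0.0825. eif-2D passed in 1 of 9, that without wild type array 2, with means from -0.61 to -0.40 and adjusted p from 0.0138 to 0.118. Directions held in all 27 of these fits. Calls were fewer over the whole table as well, with 2698 to 4276 features in the mean against 4493 with all arrays.

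**Figure D3:**
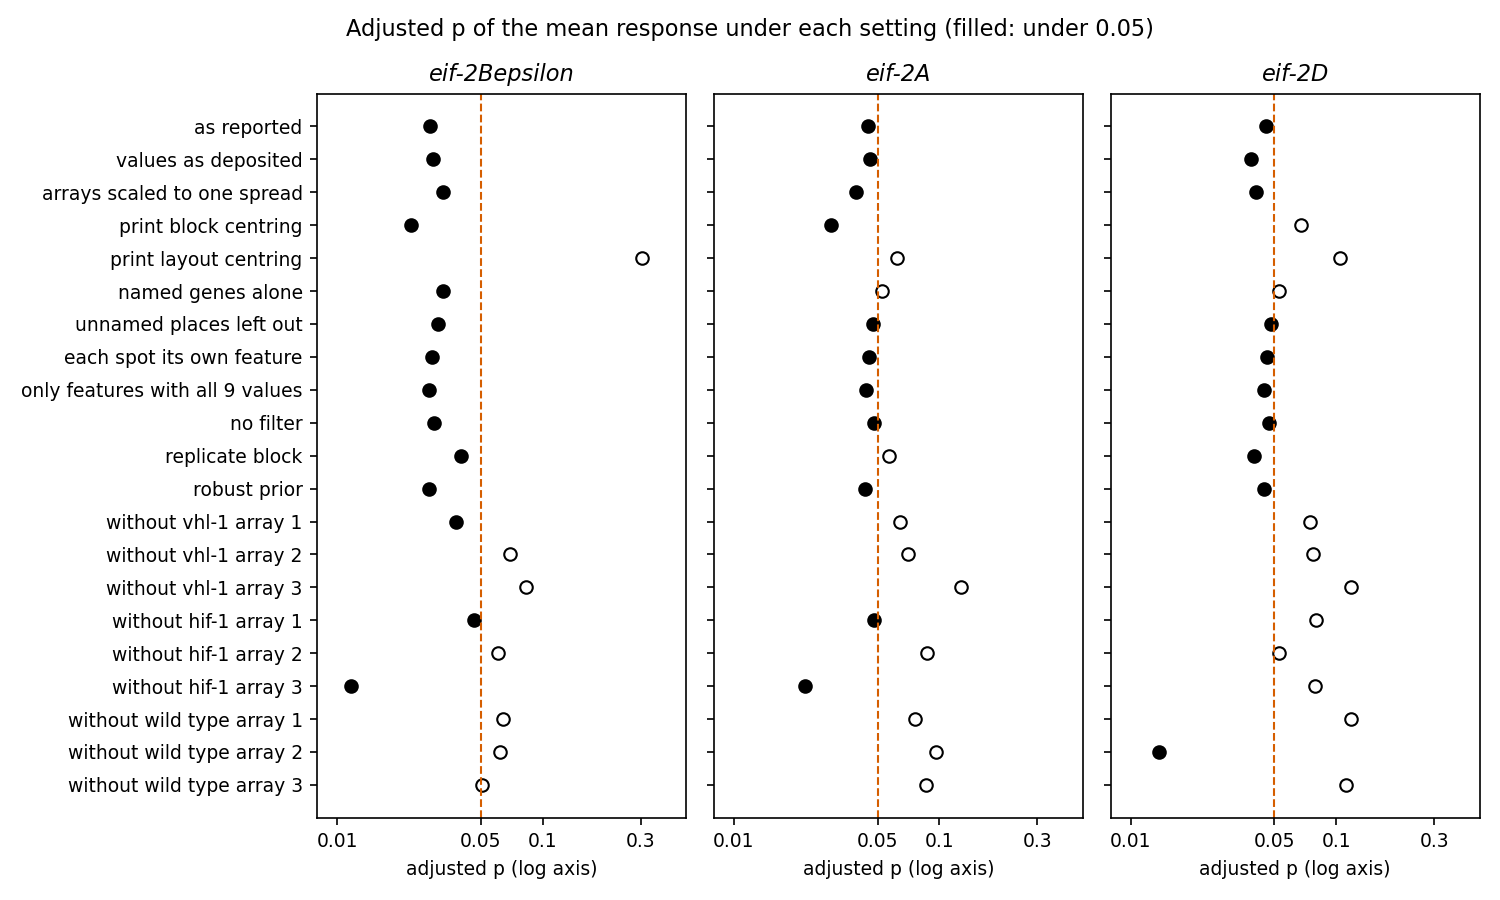
Adjusted p of the mean response (horizontal log axis) of eif-2Bepsilon, eif-2A and eif-2D under each setting of the processing and with each array left out (rows), filled where under 0.05, with a dashed line at 0.05. The points lie close to the line in most rows, and the largest shift is that of eif-2Bepsilon with print layout centring, at 0.303.

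The position on the array moved with the value of eif-2Bepsilon. The spot numbers run through 32 blocks of equal length, so that every place within a block occurs 32 times. At the place of eif-2Bepsilon the other 31 spots, which belong to other genes, had a median mean response of 0.32, and 26 of 31 were above 0. The median of this place was at the 99.4th percentile of all places. The same spots had medians of 0.47 in the vhl-1 mutant, 0.28 in the hif-1 mutant and 0.23 in wild type, beside 0.79, 0.41 and 0.28 for eif-2Bepsilon itself. With each block and then each place set to a median of 0, the mean of eif-2Bepsilon was 0.18 (adjusted p = 0.303 in limma) and its response in the vhl-1 mutant 0.21. At the places of the other 5 genes the medians of the other spots ran from -0.05 to 0.13. By block, the other 683 spots had a median of -0.21 for eif-2Bdelta and from -0.05 to 0.07 for the rest. In the vhl-1 mutant, the hif-1 mutant and wild type these block medians were -0.02, -0.29 and -0.27 for eif-2Bdelta. For eif-2D they were 0.23, -0.22 and -0.16. After centring of blocks and then places the means of eif-2A and eif-2D were 0.41 (adjusted p = 0.0625) and -0.35 (adjusted p = 0.104).

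In worms without normal VHL-1, where HIF-1 is stable in normoxia too, the comparison asks what H still changes. eif-2Bepsilon was 0.79 ± 0.20 (SD, n = 3), above 0 on 3 of 3 arrays, with an adjusted p of 0.0631 in limma, just short of the threshold. Of 12 other settings it passed in 1, with the vhl-1 mutant arrays fitted alone (adjusted p = 0.0421), and with print layout centring it was 0.21 (adjusted p = 0.543). Of the fits that left out 1 array it passed in 2 of 9, those without hif-1 mutant array 2 or 3 (adjusted p = 0.0338 and 0.0470). Without vhl-1 mutant array 1, 2 or 3 it was 0.89, 0.78 and 0.69, and it did not pass (adjusted p of at least 0.113). eif-2A was 0.38 ± 0.36, also above 0 on 3 of 3 arrays (adjusted p = 0.423). The other 4 genes lay between -0.12 and 0.06, with adjusted p from 0.768 to 0.953. Of all features 9.18% passed in vhl-1 mutant worms, and the median of the 6 genes was 0.01, beside 0.00 over all features.

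In the hif-1 mutant, which asks what H changes without HIF-1, eif-2A was at 0.75 ± 0.89 (SD, n = 3; adjusted p = 0.181 in limma) and eif-2Bepsilon at 0.41 ± 0.63 (adjusted p = 0.378). For both genes array 2 was the highest and array 3 the lowest of the genotype, so the SD within the genotype was larger than the mean. Without array 2 eif-2A was at 0.25 and eif-2Bepsilon at 0.11, and without array 3 they were at 1.10 and 0.73, with 0 of these fits past the threshold. With print layout centring eif-2Bepsilon was at 0.18. eif-2Bdelta was at -0.36 ± 0.26 and below 0 on 3 of 3 arrays (adjusted p = 0.397), as was eif-2D at -0.23 ± 0.18 (adjusted p = 0.674). With print block centring eif-2Bdelta was at -0.10 and eif-2D at -0.02 (adjusted p = 0.821 and 0.977). With print layout centring they were at -0.23 and 0.05. Of all features 1.75% passed, and the median of the 6 genes was -0.05, beside 0.02 over all features.

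In wild type, where HIF-1 and its regulation are intact, the lowest value was that of eif-2D, at -1.07 ± 0.75 (SD, n = 3; 95% interval -1.64 to -0.49; adjusted p = 0.0759 in limma), a ratio 2.10-fold higher in N. Without wild type array 2 the response was -1.50 and passed (adjusted p = 0.0340), and without array 1 or 3 it was -0.86 and -0.85 (adjusted p = 0.321 and 0.342). Of 12 other settings it passed in 1, the arrays scaled to one spread, at -1.15 (adjusted p = 0.0412). It was -0.90 with print block centring (adjusted p = 0.155) and -0.82 with print layout centring (adjusted p = 0.218), and its adjusted p was 0.163 among named genes alone and 0.150 with the wild type arrays alone. eif-2Bbeta was at -0.57 ± 0.54 (adjusted p = 0.314), and at -0.34 without wild type array 1 and -0.87 without array 3. eif-2A, at 0.42 ± 0.11 (adjusted p = 0.572), and eif-2Bepsilon, at 0.28 ± 0.09 (adjusted p = 0.667), were above 0 on 3 of 3 arrays with little spread between them. With print layout centring they were at 0.26 and 0.15. The other spots at the place of eif-2Bepsilon had a median of 0.23 in wild type. For 3 of 3 arrays of one sign in a genotype, the share of all features is not given here, so such counts have no background. Of all features 1.42% passed, and the median of the 6 genes was -0.05, beside 0.01 over all features.

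**Figure D4:**
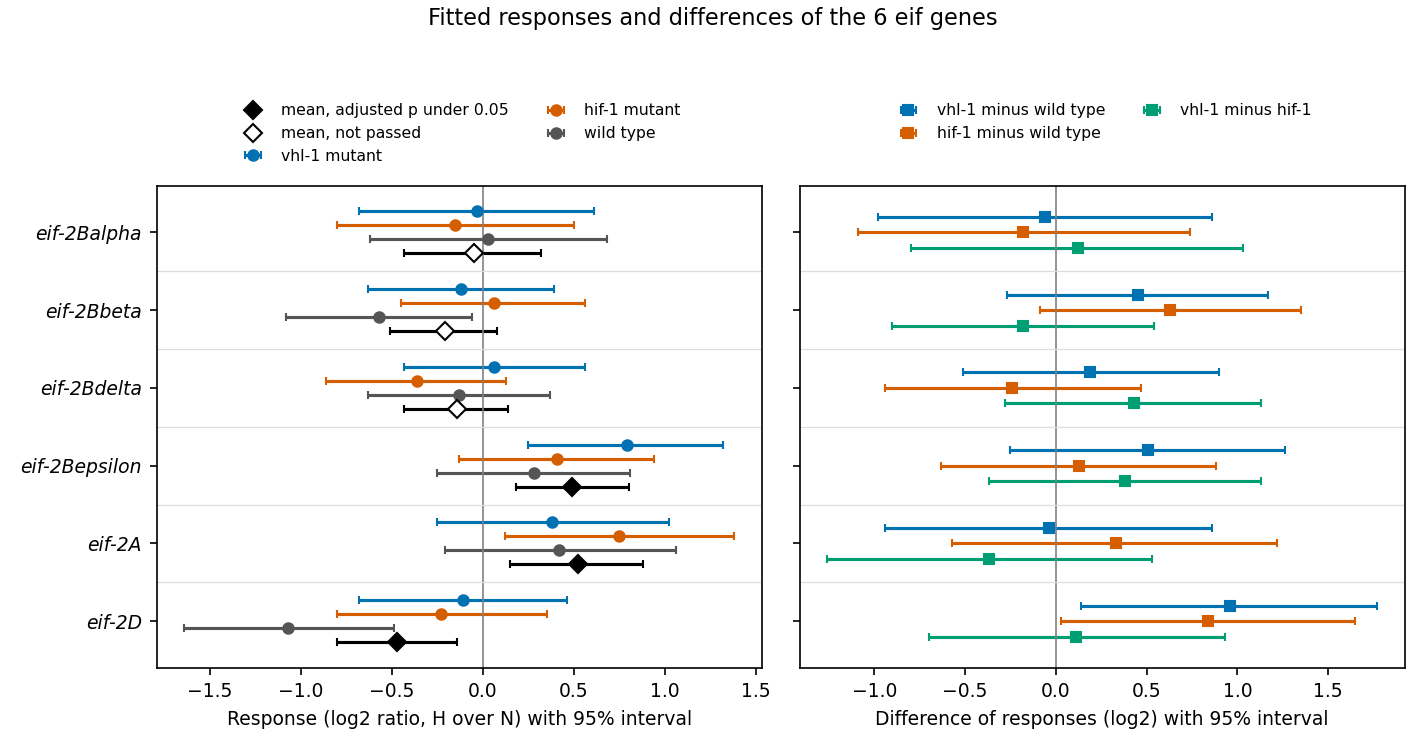
Left, fitted log2 ratio of H over N with its 95% interval for each eif gene (rows) in the vhl-1 mutant, the hif-1 mutant and wild type (circles) and in the mean over genotypes (diamonds, filled where the adjusted p was under 0.05). Right, differences of these responses between genotypes with their 95% intervals, without print centring. For eif-2D both differences from wild type have intervals that leave out 0, before any adjustment over features. With print block and print layout centring that of the vhl-1 mutant was 0.57 and 0.56.

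The differences between genotypes ask whether a response depends on HIF-1 or on VHL-1, and a constant dye effect cancels in them. Without print centring the widest difference was that of eif-2D, at -0.11 in the vhl-1 mutant against -1.07 in wild type. The difference of 0.96 (SE 0.375, 95% interval 0.14 to 1.77) had an unadjusted p of 0.0244 and an adjusted p of 0.410 in limma. In the hif-1 mutant eif-2D was at -0.23, a difference from wild type of 0.84 (SE 0.375, 95% interval 0.03 to 1.65; adjusted p = 0.837). Neither difference from wild type passed, and wild type array 2 lay among the mutant arrays in both. Over 12 other settings the difference of the vhl-1 mutant from wild type was 0.56 to 1.06. With print block and print layout centring it was 0.57 and 0.56 (unadjusted p = 0.163 and 0.14 in limma). The difference of the hif-1 mutant from wild type was 0.80 to 0.94 over these settings, and 0.88 and 0.87 with these centrings. The other spots of the block of eif-2D had medians of 0.23 (vhl-1 mutant), -0.22 (hif-1 mutant) and -0.16 (wild type). Between the vhl-1 mutant and the hif-1 mutant eif-2D differed by 0.11 (95% interval -0.70 to 0.93; adjusted p = 0.974). The cause of the low values on wild type arrays 1 and 3 was not tested.

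For eif-2Bepsilon the vhl-1 mutant, at 0.58 to 0.98, did not overlap wild type, at 0.22 to 0.38, as in 17.9% of features with all values. The difference of 0.51 (95% interval -0.25 to 1.26) had an adjusted p of 0.678 in limma. After print layout centring it was 0.06. eif-2Bbeta was higher in the mutants than in wild type by 0.45 in the vhl-1 mutant (95% interval -0.27 to 1.17; adjusted p = 0.707) and by 0.63 in the hif-1 mutant (95% interval -0.09 to 1.35; adjusted p = 0.884). Without wild type array 1 these differences were 0.21 and 0.39, and without wild type array 3 they were 0.74 and 0.92. With print block centring they were 0.30 and 0.57, and with print layout centring 0.22 and 0.38. The other spots of the block of eif-2Bbeta had medians of 0.17 (vhl-1 mutant), 0.06 (hif-1 mutant) and -0.02 (wild type). eif-2A differed by -0.04 between vhl-1 mutant and wild type worms (95% interval -0.94 to 0.86) and by 0.33 between hif-1 mutant and wild type worms (95% interval -0.57 to 1.22). eif-2Balpha differed from wild type by -0.06 and -0.18 in the vhl-1 and hif-1 mutants, and eif-2Bdelta by 0.19 and -0.24. The adjusted p of these 6 values ran from 0.898 to 0.988.

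Over all features 1 passed between vhl-1 mutant and wild type worms (0.00479%), 0 between hif-1 mutant and wild type worms, and 0 between the mutants in limma, while 10.1%, 5.94% and 6.41% had an unadjusted p under 0.05. Of the eif genes 1, 1 and 0 of 6 had such a p, eif-2D in both comparisons with wild type. The 95% intervals of the 18 differences reached 0.70 to 0.92 log2 units to either side, so smaller differences could not be told from 0 with 3 arrays a genotype.

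Within eIF2B the values of the measured subunits lay apart on single arrays. The range between the highest and the lowest of the 4 measured subunits was 0.55 to 1.85 log2 units on an array. No such range was computed for other sets of spots, so it cannot show whether the subunits shared a response. eif-2Bepsilon was the highest of them on 6 of 9 arrays, among them all 3 arrays of the vhl-1 mutant, eif-2Balpha on 2 and eif-2Bbeta on 1. This order was looked at after the values were seen, and it was not computed after print layout centring. Over all 6 genes, 2 to 4 were above 0 on every array.

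Along the chromosomes, 6 of the 12 protein-coding genes next to an eif gene had a named spot and were tested. etc-1, the neighbour of eif-2Bepsilon and the gene of a HECT-type ubiquitin ligase, rose in the mean by 0.67 (adjusted p = 0.0179 in limma; above 0 on 9 of 9 arrays), the same direction as eif-2Bepsilon. ndub-5, next to eif-2D, rose by 0.62 (adjusted p = 0.0306), opposite to eif-2D, and C50F4.8, next to eif-2Bdelta, rose by 0.64 (adjusted p = 0.0150), while eif-2Bdelta was at -0.14. C25H3.3, on the other side of eif-2D, was at 0.15, frpr-21, of a neuropeptide receptor family and next to eif-2A, at 0.10, and Y47H9C.8, next to eif-2Bbeta, at -0.03 (adjusted p from 0.642 to 0.885). Neighbours of eif genes thus had values in either direction relative to the eif gene. Of the named genes 17.0% passed in the mean, and of all features 21.5%. Values of the neighbours after print layout centring are not given here.

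The genes most like each eif gene were looked up over the 9 arrays by Pearson's r among 6756 named genes with all values. eif-2Bepsilon was followed most closely by znf-598 (r = 0.954), wbp-11 (0.940) and F40A3.6 (0.931). eif-2A was followed by F56F10.1 (r = 0.978), nucl-1 (0.953) and C02G6.2 (0.942), a likeness in which hif-1 mutant array 2 weighs most as the highest point of eif-2A. eif-2D was followed by C05D10.4 (r = 0.903), try-12 (0.901) and F38E9.4 (0.872). r leaves out the level: C05D10.4 and try-12 had mean responses of 0.38 and 0.44, above 0, where eif-2D was below it.

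For the regulatory subunits the closest genes were scpr-1 (r = 0.961), Y56A3A.28 (0.946) and C06E1.11 (0.945) for eif-2Balpha, C44B12.6 (0.932), gtnt-13 (0.902) and Y38H6A.1 (0.875) for eif-2Bbeta, and Y25C1A.8 (0.924), F33A8.4 (0.922) and R11D1.7 (0.915) for eif-2Bdelta. None of the 18 genes appears under more than 1 eif gene. These values are descriptions of 9 arrays that all the genes share, picked as the highest of 6756.

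Few other genes of protein synthesis had a named spot. Of 11 lists, 8 had 0 measured genes: initiation factors under other symbols, elongation and release factors, aminoacyl-tRNA synthetases, regulators of initiation, germ line and oocyte genes, yolk proteins, major sperm proteins and muscle genes. Of 4 mitochondrial ribosomal protein genes, 1 fell and 0 rose in the mean, beside 17.0% of the named genes and 21.5% of all features that passed in either direction, so the share was near the background. This was mrps-18.C, of the small subunit, which fell by 0.81 (adjusted p = 0.0166 in limma), with 6 of 9 arrays below 0. It was at -0.72 without vhl-1 mutant array 2 and at -0.72 without wild type array 1 (adjusted p = 0.0561 and 0.0510), and at -0.58 with print layout centring (adjusted p = 0.0960). The others were mrpl-44 at 0.30 and mrpl-48 at 0.24, of the large subunit, and mrps-27 at 0.18 (adjusted p from 0.181 to 0.352), and the median of the 4 was 0.21.

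The 1 measured gene of the cytosolic ribosome, rpl-37.1, was at 0.08 (adjusted p = 0.760). Of 4 genes of ribosome biogenesis 0 passed in the mean: rrp-1 at -0.13, rrp-8 at 0.11, nol-56, of the box C/D snoRNP core, at -0.12, and bop-1 at 0.09 (adjusted p from 0.473 to 0.739 in limma), with a median of -0.01. In single genotypes and in the differences between them 0 of the 9 genes of these lists passed, with adjusted p of at least 0.123.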

How the data were processed

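The deposited table holds a log ratio for each spot and array, taken here as log2, which the authors had set near a median of 0 (array medians -0.062 to 0.061). What was done in image reading, background correction and normalisation is not given in the sources used here. Signs were turned to H over N and each array was centred on its median. Without intensities the signal over background is not known. Of 21888 spots, 7774 had 1 gene name and 0 had several in the platform's annotation, and 7741 were matched by gene identifier to a RefSeq table of WBcel235. The sources used here name no genome build for the array, so positions are given as chromosomes and neighbours only. No sequences of these genes were used here.

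Features with at least 2 values in every genotype were kept, and spots of 1 gene were averaged. limma 3.58.1 in R 4.3.3 (statmod 1.5.0) fitted 1 mean per genotype to all 9 arrays (lmFit, eBayes; prior degrees of freedom 6.95), with 20858 features, 7179 of them named. With 3 arrays a genotype, which limits precision, the median SE was 0.266 for a response and 0.376 for a difference. The labels do not say whether replicates were separate cultures, so p-values reflect only the spread among these samples, which may be technical. All eif genes were named in each comparison, the 3 most alike genes for each, and up to 4 genes per list with the lowest p in the mean. The genes and lists were chosen with earlier results of these data known. The fit was run on simulated data with independent noise and changes of known size. These data held no dye or position effect, so they cannot show how such effects act on the results. Alternatives were values as deposited, scaled arrays, print block and layout centring, named genes alone, unnamed places left out, single spots, other filters, a robust prior, a replicate block, the arrays compared alone, and each array left out.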

Additional observations from a re-analysis of the deposited data

Results flagged for a closer look

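Among the genes named here, rrp-8, of the ribosome biogenesis list, had the opposite sign on every array of 2 genotypes. Its log2 ratios of H over N were -0.31, -0.28 and -0.06 in the vhl-1 mutant and 0.21, 0.46 and 0.64 in wild type. The difference was -0.66, and it did not pass limma's test of the difference (adjusted p = 0.523). Such opposite signs between these genotypes were found in 3.78% of the 19473 features with all values. None of the 6 eif genes showed this pattern, and with 3 arrays a genotype no check for single outlying arrays was made.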

How the results depend on the processing

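With print layout centring eif-2A was at 0.41, eif-2Bepsilon at 0.18 and eif-2D at -0.35, and 0 eif genes passed. With named genes alone eif-2A (0.52) and eif-2D (-0.47) missed the threshold at an adjusted p of 0.0525 each, which left 1 call. Among named genes alone 1109 of 7179 passed in the mean, against 4493 of 20858 features. With print block centring eif-2D (-0.42) did not pass and eif-2Bdelta was at 0.04. Causes of lost calls were not tested. The labels do not say whether arrays of one number belong together. The deviations of same-numbered arrays of different genotypes correlated at -0.204 to 0.272 over 9 pairs. Over 18 pairs with other numbers they correlated at -0.257 to 0.270, and 3 of 9 arrays correlated best with their own number. With the replicate block eif-2A (0.52) had an adjusted p of 0.0569, eif-2Bepsilon 0.0401 and eif-2D 0.0397, and 0 features passed between vhl-1 mutant and wild type worms, where 1 did without it. In the vhl-1 mutant 1 eif gene passed with its arrays fitted alone, and in wild type 1 with scaled arrays.

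Values near 0 that did not pass changed sign with print block and print layout centring, in that order. In the vhl-1 mutant this was eif-2Balpha (0.05, 0.02); in wild type eif-2Balpha (-0.01, -0.04) and eif-2Bdelta (0.13, 0.11); in the hif-1 mutant eif-2Bbeta (0.00, -0.03). Between vhl-1 mutant and wild type worms it was eif-2A (0.07, 0.06), eif-2Balpha (0.06, 0.05) and eif-2Bdelta (-0.05, -0.13), and between the mutants eif-2D (-0.32, -0.32). With print layout centring alone it was eif-2Bdelta in the vhl-1 mutant (-0.02) and eif-2D in the hif-1 mutant (0.05), and with scaled arrays eif-2Bepsilon between hif-1 mutant and wild type worms (-0.02).

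Of all features, 1915 passed in the vhl-1 mutant, 365 in the hif-1 mutant, 296 in wild type and 4493 in the mean. With named genes alone these were 302, 18, 0 and 1109, where in wild type 769 named genes had an unadjusted p under 0.05, and without the unnamed places 1189, 122 and 86 in the genotypes. The hif-1 mutant and wild type had 102 and 540 with scaled arrays, and 74 and 65 with print layout centring; the hif-1 mutant had 138 with its arrays alone. The single call between vhl-1 mutant and wild type worms was 0 with scaled arrays, print block centring, named genes alone and the arrays of these genotypes alone. Of the mitochondrial ribosomal genes 0 passed with print layout centring, against 1.

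Leaving out single arrays, the mean ranged from 0.35 to 0.64 for eif-2A, 0.39 to 0.60 for eif-2Bepsilon, -0.61 to -0.40 for eif-2D and -0.18 to 0.03 for eif-2Balpha. The eif genes called ranged from 0 to 2 in the mean, 0 to 1 in the vhl-1 mutant and 0 to 1 in wild type. The eif-2Balpha response was -0.18 to 0.12 in the vhl-1 mutant, -0.54 to 0.10 in the hif-1 mutant and -0.36 to 0.25 in wild type, that of eif-2Bbeta in the hif-1 mutant -0.05 to 0.16, and that of eif-2Bdelta -0.11 to 0.28 in the vhl-1 mutant and -0.22 to 0.02 in wild type. The difference between vhl-1 mutant and wild type worms was -0.25 to 0.10 for eif-2A and -0.28 to 0.33 for eif-2Balpha. That between hif-1 mutant and wild type worms was -0.17 to 0.68 for eif-2A, -0.56 to 0.21 for eif-2Balpha and -0.17 to 0.45 for eif-2Bepsilon. That between the mutants was -0.72 to 0.13 for eif-2A and -0.14 to 0.50 for eif-2Balpha. Features passing ranged from 427 to 2687 in the vhl-1 mutant, 61 to 352 in the hif-1 mutant, 61 to 396 in wild type, 2698 to 4276 in the mean, 0 to 1 in each difference from wild type and 0 to 5 between the mutants, and mitochondrial ribosomal genes in the mean from 0 to 1.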
